A study of Rattus norvegicus with 12 samples.

Results

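Blood group and red cell surface genes encode the membrane proteins that carry blood group antigens on red blood cells (RBCs), and 9 of them were followed in the RNA of stored rat RBCs: Rhd, Rhag, Kel, Xk, Gypc, Aqp1, Ermap, Icam4 and Slc14a1. They were chosen by name among the 29539 genes of the expression table. A row of that name was found for 8 of the 9, and Xk is named only, with no value. Blood was taken at 11 weeks of age from male Wistar rats of wild-type genotype into CPDA, an anticoagulant and preservative solution, and RBCs were purified by washing and removal of the buffy coat before total RNA was extracted and depleted of ribosomal RNA. The conditions were no storage (Cont), 10 days at 4 °C (10 d) and 20 days at 4 °C (20 d), with 4 libraries in each of the 3. No treatment of the rats is given, and the storage of the blood was the only labelled difference. The blood of each rat was divided among the storage times, so the 12 libraries are not from 12 separate animals, and which libraries share a rat is not given.

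Mature mammalian RBCs have no nucleus, and the RNA that they hold was made by their precursors and is carried over by reticulocytes, the youngest circulating red cells. The proteins encoded by these genes sit in a membrane that is held to the spectrin skeleton by anchoring complexes. The Rh protein and its relative RhAG belong to the complex around band 3 and ankyrin, while glycophorin C belongs to the junctional complex with protein 4.1. Other blood group proteins are channels and transporters, such as the water channel AQP1 and the urea transporter of the Kidd group, or members of the immunoglobulin superfamily, such as ICAM4 and ERMAP. Kell is an endopeptidase that is linked to the XK protein.

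The deposited counts summed to 65735930 to 85996710 per library, of which globin genes took 79.8% to 82.5% and the 8 measured surface genes took 0.0286% to 0.0362%. Counts were scaled by TMM, which sets each library's scale from the bulk of its genes, and are given as counts per 1000000 (CPM) on that scale. The Cont libraries had TMM factors of 1.03 to 1.30, while those of the stored samples lay between 0.859 and 0.985, so CPM on this scale is higher in the stored samples, and lower in Cont, than CPM from the library size alone. From library size alone the median log2 fold change of all 8382 genes tested was -0.35 at 10 d and -0.39 at 20 d, against -0.00 and -0.01 with TMM. Values on either scale are relative to the other RNA of a library. Cont replicate 1 had the lowest factor of the 4 Cont libraries.

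The 3 most abundant members, Rhd, Aqp1 and Kel, rose with storage on the TMM scale, and their levels at 20 d did not pass the test against those at 10 d. Rhd rose by 0.71 on the log2 scale at 10 d and Aqp1 by 0.61, and both also rose under library size alone. Kel rose by 0.45, a call that was lost under library size alone. The calls of the low-level members were also lost on that scale: with TMM, Gypc rose at 10 d, Rhag and Ermap rose at 20 d, and Icam4 and Slc14a1 did not pass any test.

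Levels of different genes were compared by TPM (transcripts per 1000000 transcripts), the authors' values per transcript length. Mean TPM over the 12 libraries was 130 for Rhd, 118 for Aqp1 and 56.4 for Kel, which placed them at rank 129, 141 and 239 among all genes of the table. The same mean was 6.24 TPM for Rhag, 3.73 for Ermap, 2.34 for Gypc, 0.963 for Icam4 and 0.611 for Slc14a1. Rhd, Aqp1 and Kel together held 94.6% to 96.3% of the TPM of the 8 genes in each library.

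The order of levels was stable in most places. Rhd and Aqp1 overlapped in TPM over the 12 libraries, and so did Icam4 and Slc14a1, whereas every other pair of neighbours was separate in all libraries. Within conditions, Rhd and Aqp1 overlapped in Cont and 10 d but not in 20 d, and Icam4 and Slc14a1 overlapped in Cont and 20 d but not in 10 d. Within every library Rhd was above Aqp1, with a TPM ratio of 1.016 or more. Icam4 was below Slc14a1 in 20 d replicate 3, at 0.575 against 0.637 TPM, and above it in the other libraries.

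**Figure D1:**
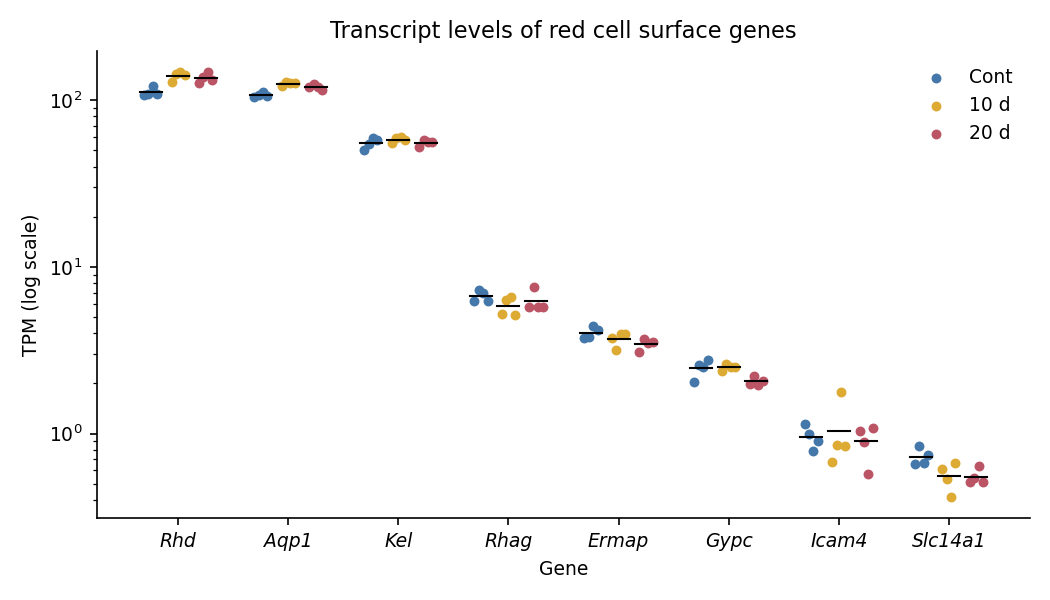
TPM on a log scale of the 8 measured genes in each library, coloured by storage condition, with a line at the mean of the 4 libraries. Rhd and Aqp1 lie above 100 TPM in every library, Kel between 50.3 and 59.9 TPM, and the other 5 genes at or below 7.55 TPM.

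The first members are the Rh pair. Rhd is the rodent gene of the Rh blood group protein, and Rhag encodes the Rh-associated glycoprotein, which assembles with it in the membrane and conducts ammonia. In mRatBN7.2, Rhd (ENSRNOG00000017130) lies at chr5:147087518-147121715 on the plus strand and Rhag (ENSRNOG00000050121) at chr9:20069807-20097836 on the minus strand. None of the 8 measured genes overlaps another annotated gene.

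The bases upstream of these genes are shown for the Rh pair, Aqp1 and Gypc, examples with mean levels from 2.34 to 130 TPM. They come from RefSeq on the build GRCr8, a later build than that of the counts, with matches to the GATA words AGATAA or AGATAG or TGATAA or TGATAG and to the CACCC words CCACACCC or CCACGCCC or CCCCACCC or CCCCGCCC in capitals, on either strand. GATA1 and KLF1, the leading transcription factors of red cell precursors, are known to bind words of these kinds. The window is chr5:152370950-152371189 on the plus strand for Rhd, chr9:27594391-27594640 on the minus strand for Rhag, chr4:85812534-85812783 on the plus strand for Aqp1 and chr18:24467593-24467842 on the minus strand for Gypc.
Rhd: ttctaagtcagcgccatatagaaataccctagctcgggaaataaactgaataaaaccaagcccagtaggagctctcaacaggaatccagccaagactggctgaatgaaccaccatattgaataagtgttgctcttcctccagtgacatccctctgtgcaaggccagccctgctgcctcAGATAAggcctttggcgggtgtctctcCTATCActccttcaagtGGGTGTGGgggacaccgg
Rhag: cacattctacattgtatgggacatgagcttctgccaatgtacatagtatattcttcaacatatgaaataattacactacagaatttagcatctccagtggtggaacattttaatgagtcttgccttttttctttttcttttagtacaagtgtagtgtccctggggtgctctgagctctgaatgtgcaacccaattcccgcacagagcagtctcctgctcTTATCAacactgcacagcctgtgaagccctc
Aqp1: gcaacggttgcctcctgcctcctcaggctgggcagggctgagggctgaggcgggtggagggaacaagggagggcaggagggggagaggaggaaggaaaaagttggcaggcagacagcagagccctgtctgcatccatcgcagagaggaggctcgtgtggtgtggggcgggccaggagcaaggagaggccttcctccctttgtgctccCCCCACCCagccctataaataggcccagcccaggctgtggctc
Gypc: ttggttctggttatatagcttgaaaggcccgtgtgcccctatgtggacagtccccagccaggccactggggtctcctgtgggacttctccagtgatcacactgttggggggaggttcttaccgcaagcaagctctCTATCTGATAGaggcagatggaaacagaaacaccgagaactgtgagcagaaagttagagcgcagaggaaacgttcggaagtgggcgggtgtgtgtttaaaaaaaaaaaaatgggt
Positions of words are counted from the start site, with -1 as the last base before it. The Rhd window holds GATA words at -72 and -45 and a CACCC word at -28, and it is printed only up to 10 bases before the start site, with its last 30 printed bases inside the longest RefSeq gene model. The Rhag window has a GATA word at -31, the Aqp1 window has a CACCC word at -43 and no GATA word, and the Gypc window has 2 GATA words at -115 and -110 that overlap each other.

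Over the 250 bases upstream of all 9 genes, which were all matched by symbol, a GATA word was present in 7 and a CACCC word in 4, and 3 held both. Among 33469 RefSeq promoters of this length a GATA word was present in 27% and a CACCC word in 24.9%, and both in 3.93%. The genes were chosen for their names in RBCs, and these matches describe letters in the windows only. The windows of Kel, Ermap and Slc14a1 lie in whole or in part inside longer gene models and are not printed. Those of Xk, with no word of either kind, and Icam4, with both kinds, are not printed either.

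In Cont, Rhd was at 75.5, 63.0, 64.1 and 64.5 CPM in replicates 1 to 4. At 10 d it was at 107, 111, 108 and 111 CPM, and at 20 d at 110, 116, 120 and 113 CPM. All 8 stored samples were above all 4 Cont samples, and Cont replicate 1 stood above the other Cont samples.

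The log2 fold change of Rhd was 0.71 ± 0.07 (SE) at 10 d, with an adjusted p of 6.27e-06 in edgeR's quasi-likelihood test. At 20 d it was 0.78 ± 0.07, with an adjusted p of 2.44e-07. Rhd had the largest change of the 8 genes in both comparisons with Cont, and only 346 of 8382 genes had a larger log2 fold change at 10 d and 179 at 20 d. Between 20 d and 10 d its log2 fold change was 0.07, with a 95% interval of -0.08 to 0.21.

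By library size alone, Rhd was at 77.5, 77.8, 83.2 and 77.5 CPM in Cont. The stored samples were again separate from Cont, at 92.3 to 107 CPM at 10 d and 95.4 to 113 CPM at 20 d. On this scale the log2 fold changes were 0.37 at 10 d (adjusted p = 0.00356) and 0.40 at 20 d (adjusted p = 0.000576).

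Rhag was at 6.31, 5.99, 5.29 and 5.31 CPM in Cont, at 6.24, 7.03, 6.94 and 5.76 CPM at 10 d, and at 7.17, 9.03, 6.67 and 7.08 CPM at 20 d. The 10 d samples overlapped those of Cont, whereas the 20 d samples were all above them, with replicate 2 the highest.

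The log2 fold change of Rhag was 0.18 ± 0.11 (SE) at 10 d (adjusted p = 0.324) and 0.39 ± 0.11 at 20 d (adjusted p = 0.00915). With a filter of CPM over 1 in 4 libraries, after which TMM was computed anew, the call at 20 d was lost (0.21, adjusted p = 0.152). By library size alone the value at 20 d was 0.00 and the one at 10 d was -0.17, and neither passed the test. Within a library, the TPM ratio of Rhd to Rhag does not depend on the scaling. It was 16.8 ± 1.12 (SD, n = 4) in Cont, 24.4 ± 2.43 at 10 d and 22.3 ± 3.02 at 20 d, and all stored samples, at 18.4 or more, were above the highest Cont sample at 17.4.

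The channels were Aqp1 and Slc14a1. Aqp1 (ENSRNOG00000011648, chr4:84482512-84494690, plus strand) encodes the water channel that carries the Colton antigens, and Slc14a1 (ENSRNOG00000016753, chr18:71565454-71595146, minus strand) the urea transporter that carries the Kidd antigens. Aqp1 had the most counts of the 8 genes, 8872 to 12634 per library, and Slc14a1 had 59 to 131.

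Aqp1 was at 130, 109, 104 and 111 CPM in Cont, at 179, 176, 164 and 173 CPM at 10 d, and at 184, 183, 171 and 174 CPM at 20 d. The stored samples did not overlap Cont, and the 2 storage times overlapped each other. It had a log2 fold change of 0.61 ± 0.07 (SE) at 10 d (adjusted p = 4.10e-05) and 0.65 ± 0.07 at 20 d (adjusted p = 3.88e-06).

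Aqp1 was the most even member within conditions when only library size was used. On that scale it was at 133 to 135 CPM over the 4 Cont samples, 153 to 164 CPM at 10 d and 159 to 165 CPM at 20 d. Its log2 fold changes there were 0.26 at 10 d (adjusted p = 0.00762) and 0.27 at 20 d (adjusted p = 0.00279).

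Slc14a1 was at 1.26, 1.33, 0.960 and 1.20 CPM in Cont, at 1.41, 1.13, 0.839 and 1.42 CPM at 10 d, and at 1.22, 1.23, 1.41 and 1.20 CPM at 20 d. The 3 conditions overlapped. Its log2 fold change was 0.01 at 10 d, with a 95% interval of -0.37 to 0.39 and an adjusted p of 0.983, and 0.09 at 20 d, with an interval of -0.29 to 0.47 and an adjusted p of 0.747. Both signs turned by library size alone, to -0.34 at 10 d and -0.29 at 20 d, and neither passed the test.

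The TPM ratio of Aqp1 to Slc14a1 was 150 ± 18.2 (SD, n = 4) in Cont, 233 ± 52.3 at 10 d and 220 ± 21.6 at 20 d. Cont samples ranged from 128 to 168 and stored samples from 188 to 304, with no overlap. The ratios were chosen after the values were seen and were not tested.

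Kel (ENSRNOG00000015682, chr4:70568243-70585631, minus strand) encodes the Kell glycoprotein, an endopeptidase of the red cell surface. It was at 58.3, 52.1, 51.8 and 56.0 CPM in Cont, at 76.2, 75.5, 72.3 and 73.8 CPM at 10 d, and at 75.3, 78.9, 75.0 and 78.8 CPM at 20 d. On this scale all stored samples were above all Cont samples.

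Kel had a log2 fold change of 0.45 ± 0.07 (SE) at 10 d (adjusted p = 0.000162) and 0.50 ± 0.07 at 20 d (adjusted p = 1.56e-05). The call rested on the scaling, since by library size alone the values were 0.10 (adjusted p = 0.340) and 0.11 (adjusted p = 0.233). Its level was then 59.8 to 67.3 CPM for Cont, 65.5 to 71.2 CPM at 10 d and 65.1 to 72.5 CPM at 20 d, and the conditions overlapped.

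Within the same libraries the level of Rhd relative to that of Kel was higher in stored samples, although this was not tested. The TPM ratio of Rhd to Kel was 2.01 ± 0.10 (SD, n = 4) in Cont, 2.42 ± 0.07 at 10 d and 2.46 ± 0.11 at 20 d. The highest Cont sample was at 2.13 and the lowest stored sample at 2.32. For Aqp1 to Kel the ratios were 1.95 ± 0.11, 2.17 ± 0.04 and 2.17 ± 0.09, and the lowest 20 d sample, at 2.07, was below the highest Cont sample, at 2.09.

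Gypc (ENSRNOG00000029939, chr18:24160739-24193204, minus strand) encodes glycophorin C, which carries the Gerbich antigens and anchors the membrane to the skeleton through protein 4.1. It was at 2.21, 2.28, 2.03 and 2.53 CPM in Cont, at 3.08, 3.14, 2.81 and 3.01 CPM at 10 d, and at 2.66, 2.86, 2.42 and 2.72 CPM at 20 d. The 10 d samples were above all Cont samples, and the 20 d samples overlapped both.

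For Gypc the log2 fold change was 0.41 ± 0.11 (SE) at 10 d (adjusted p = 0.0144) and 0.24 ± 0.11 at 20 d (adjusted p = 0.0998). Between 20 d and 10 d it was -0.17, with a 95% interval of -0.40 to 0.05. Without the filter on low counts the call at 10 d was lost (0.41, adjusted p = 0.0824). Library size alone gave 0.06 at 10 d (adjusted p = 0.757) and turned to -0.15 at 20 d (adjusted p = 0.328). Without Cont replicate 4 Gypc also passed the test at 20 d, with an adjusted p of 0.0421.

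The members of the immunoglobulin superfamily were Ermap and Icam4. Ermap (ENSRNOG00000000335, chr5:132789991-132802847, minus strand) encodes the erythroid membrane protein that carries the Scianna antigens. Icam4 (ENSRNOG00000042078, chr8:19566075-19567171, plus strand) encodes an adhesion molecule that binds integrins and carries the LW antigens.

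Ermap was at 4.59, 3.77, 4.03 and 4.27 CPM in Cont, at 5.44, 4.29, 5.02 and 5.35 CPM at 10 d, and at 4.61, 5.32, 4.88 and 5.23 CPM at 20 d. The 20 d samples lay just above the Cont samples, and 10 d replicate 2 lay within their range. The log2 fold change was 0.27 ± 0.10 (SE) in both comparisons, with an adjusted p of 0.0858 at 10 d and 0.0470 at 20 d.

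The Ermap call at 20 d was lost in the likelihood ratio test (adjusted p = 0.0603) and with the filter of CPM over 1 in 4 libraries (0.10, adjusted p = 0.496). It was also lost at 20 d in 7 of the 12 fits with 1 library left out: those without Cont replicate 2 (adjusted p = 0.0863) or 3 (0.0533), 10 d replicate 3 (0.0581) or 4 (0.0553), and 20 d replicate 2 (0.119), 3 (0.0657) or 4 (0.107). At 10 d it was gained without 10 d replicate 2 (adjusted p = 0.0380). The sign of Ermap turned by library size alone, to -0.08 at 10 d and -0.11 at 20 d.

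Icam4 had only 17 to 52 counts per library. It was at 0.453, 0.324, 0.234 and 0.301 CPM in Cont, at 0.322, 0.376, 0.739 and 0.372 CPM at 10 d, and at 0.511, 0.420, 0.264 and 0.524 CPM at 20 d. The conditions overlapped, and 10 d replicate 3 stood far above the other 10 d samples. The log2 fold change was 0.46 at 10 d, with a 95% interval of -0.23 to 1.16 and an adjusted p of 0.438, and 0.39 at 20 d, with an interval of -0.31 to 1.09 and an adjusted p of 0.403. The interval at 10 d includes both no change and the value of Rhd.

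**Figure D2:**
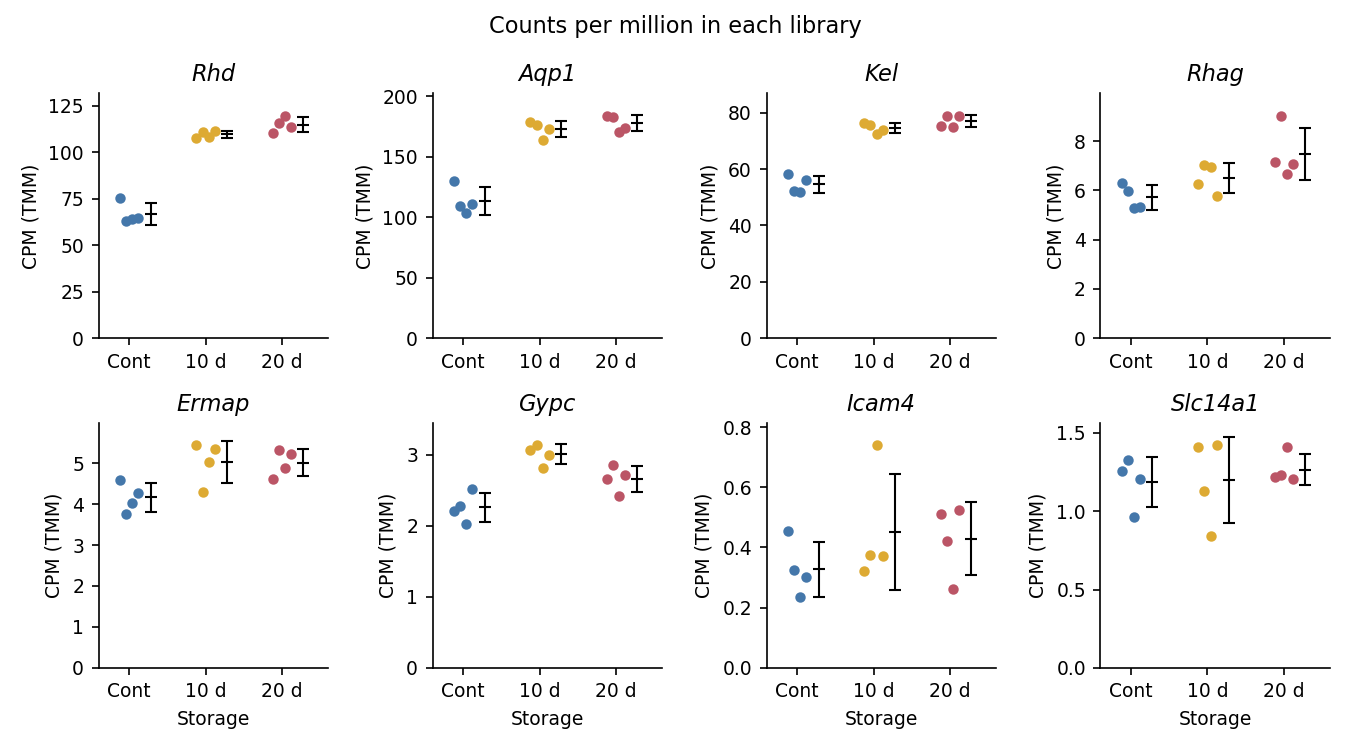
TMM-scaled CPM (axes start at 0) of the 8 genes in each library of Cont, 10 d and 20 d, with the mean and SD of the 4 libraries beside the points. Rhd, Aqp1 and Kel are separate from Cont at both storage times, Gypc at 10 d only, and Rhag and Ermap at 20 d only. Icam4 and Slc14a1 overlap throughout. The share of all genes with such separation was not counted.

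At 10 d, 4 of the 8 genes rose (Rhd, Aqp1, Kel and Gypc) and none fell, where 7.87% of all genes tested were called higher and 5.67% lower. At 20 d, 5 of the 8 rose (Rhd, Aqp1, Kel, Rhag and Ermap) and none fell, against 12.8% higher and 21.1% lower of all genes. The median log2 fold change of the 8 genes was 0.43 at 10 d and 0.39 at 20 d. Both comparisons share the Cont samples, so they are not independent of each other. The members were chosen with earlier results of these data known, so the counts beside the shares of all genes are descriptions only.

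Between 20 d and 10 d none of the 8 genes was called at an adjusted p under 0.05, nor at an unadjusted p under 0.05, in edgeR's test, while 3.33% of all genes were called higher and 12.6% lower. The values of the 8 ran from -0.17 for Gypc to 0.21 for Rhag, with a median of 0.04 against -0.08 for all genes. In the test across the 3 conditions, 3 of the 8 passed an adjusted p of 0.0001, Rhd with 4.47e-07, Aqp1 with 5.58e-06 and Kel with 2.49e-05, and 6.13% of all genes did so. For Kel this call was lost without Cont replicate 2 (adjusted p = 0.000136) and with the filter of CPM over 1 in 4 libraries (adjusted p = 0.000161).

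When libraries were scaled by size alone, Rhd and Aqp1 were the 2 genes of the 8 called in each comparison with Cont, where 1.17% of all genes were called higher at 10 d and 1.18% at 20 d. None of the 8 then passed the test across the 3 conditions, for which Rhd had an adjusted p of 0.00101 and Aqp1 of 0.00368. The calls of all genes split very differently on the 2 scales. At 10 d TMM gave 660 genes higher and 475 lower and library size alone 98 and 1899, and at 20 d the split was 1076 and 1768 against 99 and 2910.

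**Figure D3:**
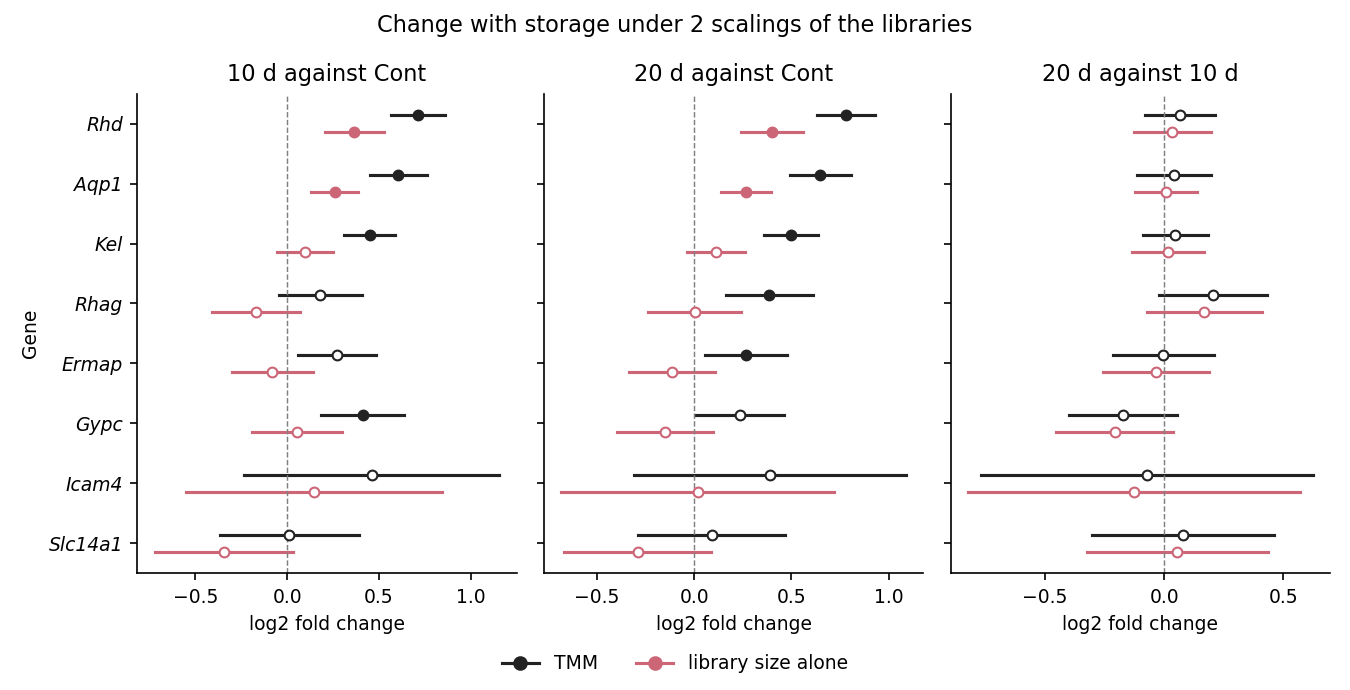
Log2 fold change (x axis) with its 95% interval for the 8 genes in the 3 comparisons, scaled by TMM (black) and by library size alone (red), with filled points where the adjusted p is under 0.05. Every point against Cont moves to the left by about the same amount under library size alone, and those of Rhd and Aqp1 stay filled in both comparisons with Cont.

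The genes around the members were counted in 2 lists. Of 32 other blood group genes, 29 were in the table and 18 could be tested. At 10 d, 4 rose and 2 fell, and at 20 d, 4 rose and 3 fell, with medians of 0.08 and 0.14. By library size alone the counts were 2 and 6 at 10 d and 1 and 5 at 20 d.

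The 3 with the smallest adjusted p at 20 d were Cd59, Slc44a2 and Cd44. Cd59, a complement inhibitor anchored in the membrane, was at 7.32 ± 0.41 CPM (SD, n = 4) in Cont and 13.3 ± 1.05 at 20 d, a log2 fold change of 0.87 (adjusted p = 6.28e-07). This change was close to that of Rhd. Slc44a2, a choline transporter-like protein, fell by 2.99 on the log2 scale at 20 d (adjusted p = 2.98e-06). Its counts were low, at 82 to 160 per library in Cont and 6 to 17 at 20 d. Cd44, a hyaluronan receptor that is also abundant on leukocytes, fell by 0.88 (adjusted p = 9.18e-05).

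Of 17 partners of the members in the membrane complexes and close homologs, 15 were in the table and 11 could be tested. On the TMM scale 9 rose at 10 d and 8 at 20 d, and none fell. With library size alone 4 rose and 2 fell at 10 d, and 1 rose and none fell at 20 d. Between 20 d and 10 d, 1 partner rose and 3 fell.

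The partners with the smallest adjusted p at 20 d were Epb42 (protein 4.2), Stom (stomatin) and Add2 (an adducin of the spectrin junctions). With TMM their log2 fold changes at 20 d were 0.64 for Epb42 (adjusted p = 2.18e-05), 0.52 for Stom (adjusted p = 0.000124) and 0.39 for Add2 (adjusted p = 0.000150). By library size alone only 1 of the 11 tested partners rose at 20 d, so most of these calls were lost on that scale. The sign of Add2 turned under globin counts.

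The 3 partners that fell between 10 d and 20 d were Slc4a1 (band 3), Ank1 (ankyrin) and Epb41 (protein 4.1), named after their values were seen. Slc4a1 was at 413 ± 81.2 CPM in Cont, 745 ± 39.5 at 10 d and 443 ± 76.6 at 20 d (SD, n = 4). With TMM it rose by 0.85 on the log2 scale at 10 d (adjusted p = 0.000159) and fell by 0.75 from 10 d to 20 d (adjusted p = 0.000485), whereas none of the 8 members was called between those times. By library size alone Slc4a1 was at 349 to 672 CPM in Cont and 660 to 751 CPM at 10 d, which overlapped. At 20 d it was at 343 to 513 CPM on that scale, below all 10 d samples. The TPM ratio of Rhd to Slc4a1 was 0.510 ± 0.128 in Cont, 0.449 ± 0.031 at 10 d and 0.805 ± 0.126 at 20 d. The 20 d samples were above all 10 d samples, but 20 d replicate 4, at 0.619, was below Cont replicate 1, at 0.675.

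**Figure D4:**
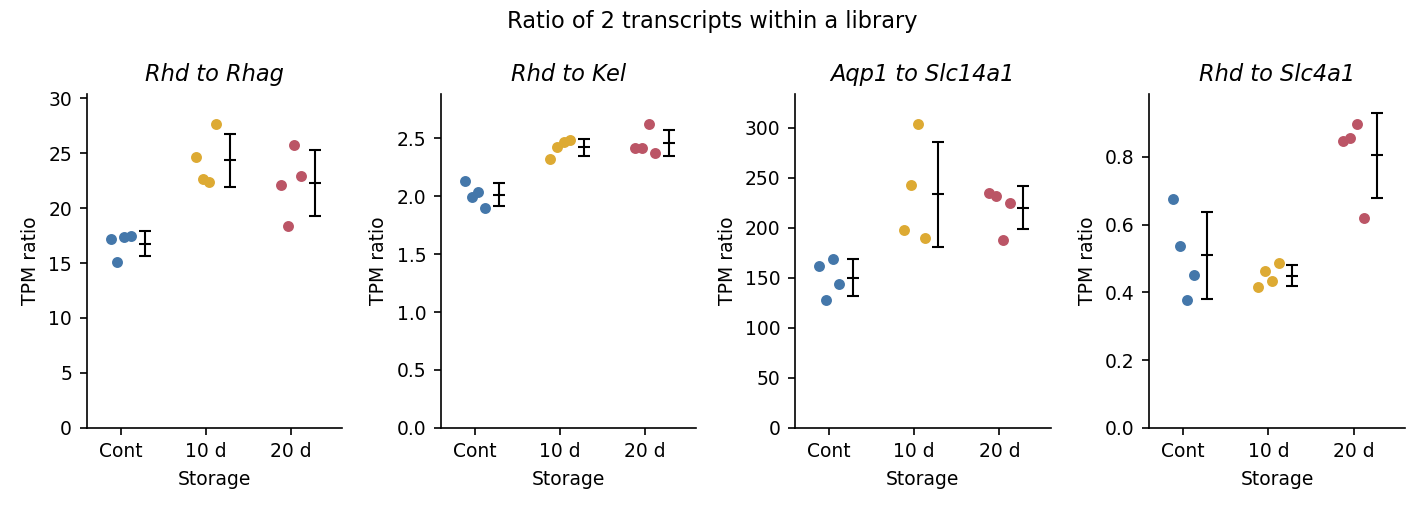
Ratio of the TPM of 2 genes within each library (axes start at 0) for Rhd to Rhag, Rhd to Kel, Aqp1 to Slc14a1 and Rhd to Slc4a1, with the mean and SD of 4 libraries per condition. The first 3 ratios are higher in every stored sample than in every Cont sample, and the ratio to Slc4a1 is higher in every 20 d than in every 10 d sample but overlaps with Cont.

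Markers of other blood cells also moved with storage. For 15 leukocyte markers the summed CPM ranged from 82.0 to 134 over Cont, from 19.8 to 47.1 over 10 d and from 3.85 to 8.40 over 20 d. Of the 13 tested, 8 were lower and 1 higher at 10 d, and all 13 were lower at 20 d, with Nkg7 at 0 in all stored samples. In these bulk samples, fewer cells of a type and less RNA per cell cannot be told apart.

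The summed CPM of the 9 platelet markers in the table was 0.457 to 1.01 in Cont, 3.06 to 3.94 at 10 d and 0.496 to 0.708 at 20 d, and 6 of the 7 tested were higher at 10 d. Gypc was the only member called at 10 d and not at 20 d, but it did not pass the test between those times. A link between Gypc and the platelet markers was not tested. For 6 endothelial markers the sums were 0.634 to 0.912, 0.910 to 1.21 and 0.0750 to 0.165 CPM, with Emcn at 0 in every condition, Tek at 0 in Cont and Cdh5 at 0 in 20 d. All 11 red cell markers in the table had counts in every condition, and on the TMM scale 11 of them were called higher at 10 d and 10 at 20 d, with a sum of 615059 to 804028 CPM in Cont and 820879 or more in stored samples. This direction rests on the scaling, since globin genes took 79.8% to 82.5% of the counts in every library. By mean TPM the markers were mixed. Hba-a2, an alpha globin gene, was at 312454 in Cont and 255826 at 20 d. Hbb-b1, a beta globin gene, went the other way, from 230174 to 241920, as did Epb42, from 65.8 to 72.8. The part of these shifts in the values of the 8 genes was not tested.

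Across the 12 libraries, the log2 CPM of Rhd, Aqp1 and Kel moved together, with a Pearson r of 0.98 for Rhd and Kel, 0.98 for Rhd and Aqp1 and 0.99 for Kel and Aqp1. By library size alone they were 0.80, 0.96 and 0.70. Slc14a1 had an r between -0.40 and 0.22 with each of the other 7 genes. All of these values share the libraries, their scaling and the 3 conditions, so they are descriptions only.

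Among 3339 genes with a symbol and a mean of at least 1 CPM, the gene most like Rhd was Ctsd (r = 0.99), followed by Cnppd1 and Abtb1. Cnppd1, Specc1 and Smox were nearest to Aqp1, with an r of 0.99 each. For Kel they were Specc1, Cnppd1 and Aqp1 itself, so that the most abundant members had near neighbours in common. Acp1 (r = 0.89) was nearest to Rhag, Chrnb1 (r = 0.93) to Gypc, Ptdss2 (r = 0.91) to Ermap, Ulk2 (r = 0.79) to Icam4 and Suclg2 (r = 0.86) to Slc14a1. With library size alone the r of Ctsd with Rhd was 0.97, whereas that of Specc1 with Aqp1 was 0.44.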

How the data were processed

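Total RNA of purified RBCs was measured in 12 libraries, 4 per storage condition. The authors mapped paired short reads to mRatBN7.2 in CLC Genomics Workbench and deposited raw read counts per gene, used for every test, and TPM, used for levels and ratios. Whether reads or pairs were counted, and how multi-mapped reads were treated, is not given in the sources used here. The authors' CPM and RPKM, 24 columns, and 24 columns of their own comparisons (group maxima, fold changes and p-values) were not used. Counts were filtered by filterByExpr, scaled by TMM and fitted over all 12 libraries with edgeR 4.0.16 in R 4.3.3 (quasi-likelihood test, Benjamini-Hochberg over 8382 genes), at an adjusted p of 0.05 for pairs of conditions and 0.0001 across all. The procedure was tested on simulated data. The alternatives were library size alone, scaling to globin counts (8 of 13 listed globin genes in the table), DESeq2 1.42.0, the likelihood ratio test, no filter, a filter of CPM over 1 in 4 libraries, a replicate block and 12 fits without 1 library. TMM factors were computed after filtering, so a change of filter also changed the scaling. Named genes were all members, of each context list the 3 with the lowest adjusted p for 20 d, and the 3 genes most like each member by Pearson r of log2 CPM. The members and lists were chosen with earlier results of these data known. The storage times are portions of the same rats' blood, but the rat behind each replicate number is not given, so no pairing entered the tests. The p-values therefore take the 12 libraries as independent, although they share rats, and rest on the spread between these samples. Counting intervals were not used, and the depth left after globin limits the low-level genes. Correlations used log2 CPM with a prior count of 2. Versions were Python 3.11.15 and limma 3.58.1.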

Additional observations from a re-analysis of the deposited data

Results flagged for a closer look

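Of 24 sets of 4 samples (8 genes in 3 conditions), 3 held a sample far from the others by Dixon's test, and chance flags about 1 in 20 groups. In Cont, Rhd in replicate 1 was at 75.5 CPM, above 63.0 to 64.5 CPM in the other 3. This library also had the lowest TMM factor of Cont. By library size alone its Rhd was the lowest of Cont, at 77.48 CPM against 77.53 to 83.2 CPM in the others. Icam4 in 10 d replicate 3 was at 0.739 CPM, from 52 counts, above 0.322 to 0.376 CPM. Slc14a1 in 20 d replicate 3 was at 1.41 CPM, from 91 counts, above 1.20 to 1.23 CPM.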

How the results depend on the processing

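For the 8 genes, scaling moved the calls most. Under library size alone and under globin counts the genes of the 8 called were 0 across the 3 conditions and 2 at each of 10 d and 20 d, and under the CPM filter, where 7 of the 8 were tested, 2 across the 3 conditions and 3 at 20 d. The likelihood ratio test called 4 at 20 d and the fit without a filter 3 at 10 d, while DESeq2 called 3, 4 and 5. Values that turned sign under library size alone and under globin counts were, at 10 d, Rhag (-0.17 and -0.17), Ermap (-0.080 and -0.079) and Slc14a1 (-0.34 and -0.34), and at 20 d, Gypc (-0.15 and -0.16), Ermap (-0.11 and -0.12) and Slc14a1 (-0.29 and -0.29); under globin counts alone Rhag (-0.0042) and Add2 (-0.0061) turned at 20 d. Slc14a1 also turned with DESeq2 (-0.038 at 10 d) and with the CPM filter (-0.12 at 10 d and -0.082 at 20 d). Ermap between 20 d and 10 d turned with DESeq2 (0.045), without a filter (0.069) and with the replicate block (0.0021), and Icam4 turned without a filter (0.0056). With 1 library left out, values turned in Ermap (-0.072 to 0.037) and Icam4 (-0.20 to 0.27) between 20 d and 10 d, and in Slc14a1 at 10 d (-0.080 to 0.15) and between 20 d and 10 d (-0.060 to 0.17). The cause was not tested. All genes called across the 3 conditions were 514, and 1306 with DESeq2, 1293 with the likelihood ratio test, 1521 without a filter, 218 with the CPM filter and 1022 with the replicate block, and 248 (without Cont replicate 2) to 600 (without Cont replicate 1) with 1 library left out, where 293 and 339 were called without Cont replicate 4 and 20 d replicate 2. All genes called at 10 d were 1135, and 1997 under library size alone and 1877 under globin counts, and 742 (without Cont replicate 2) to 1311 (without Cont replicate 1) with 1 library left out. With the CPM filter, which tested 3817 genes, 1019 were called at 20 d and 677 between 20 d and 10 d. Same-numbered samples correlated at 0.017 to 0.214 in their deviations, over 0.1 in 5 of 12 pairs, and 9 of 12 libraries were nearest to their own number; the replicate block left 3, 4, 5 and 0 of the 8 genes called, as without it.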
